A study of Homo sapiens with 8 samples.

Results

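The genes described here are 31 genes of cholesterol and fatty acid synthesis, chosen by name from the 35238 gene symbols counted in MP38 cells, a BAP1-mutant uveal melanoma (UM) cell line. They fall into 4 roles. The isoprenoid steps are made by 7 enzymes (ACAT2, HMGCS1, MVK, PMVK, MVD, IDI1 and FDPS) and the sterol steps by 11 (FDFT1, SQLE, LSS, CYP51A1, TM7SF2, MSMO1, NSDHL, HSD17B7, EBP, SC5D and DHCR7). Regulation and sterol transport are represented by 5 genes (SREBF1, SREBF2, SCAP, INSIG1 and STARD4) and fatty acid synthesis by 8 (ACLY, ACSS2, ACACA, FASN, ELOVL6, SCD, FADS1 and FADS2). All 31 passed the filter on low counts that left 15085 genes for testing.

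Cells of this line received romidepsin at 40 nM, quisinostat at 40 nM or mivebresib at 1200 nM for 24 h, with 0.1% DMSO present throughout, and the control received 0.1% DMSO alone. Romidepsin and quisinostat inhibit histone deacetylases (HDAC), while mivebresib blocks the bromodomains of BET proteins, which read acetylated histones. Bulk RNA sequencing was performed on 2 wells per group, so that every group is a pair of cultures of the same tumor line. The p-values measure the spread between wells. They use an estimate of it shared by all groups, although the control wells differed more from each other than the drug wells did. The question addressed was how each drug changed the expression of these genes relative to the control, and whether the drugs differed from each other.

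Cells make cholesterol from acetyl-CoA through mevalonate, farnesyl diphosphate, squalene and lanosterol, and they make fatty acids from the same precursor through malonyl-CoA. When sterols run low, SCAP carries the SREBP transcription factors, the products of SREBF1 and SREBF2, from the endoplasmic reticulum to the Golgi, where they are cut and released to the nucleus. INSIG proteins hold SCAP back when sterols are plentiful, and INSIG1 is itself a target of the SREBPs. Promoters of this pathway typically carry a sterol regulatory element next to a CCAAT box or a GC box.

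The promoters were examined in RefSeq windows on GRCh38.p14 that reach from 250 bases before to 50 bases after the gene start, taking the window listed first for each gene. Of the 31 genes, 27 had a window, and ACAT2, FDFT1, SQLE and FASN did not. On either strand, the CCAAT box (letters CCAAT) was present in 18 of the 27 windows, or 66.7%, and in 35.7% of all 27305 windows. The GC box (GGGCGG) was present in 25 of them, or 92.6%, and in 44.6% of all windows. The sterol regulatory element, searched as TCACNCCAC, was matched in 1 of the 27, the SREBF2 promoter, and in 1.15% of all windows. An element with other letters, or outside the window, would be missed by this search. None of these 3 motifs can contain another. The 27305 windows were not limited to the 15085 genes tested, so they are not matched to the 31 genes in expression. Those matches describe letters in a window and not binding. The 250 bases before the start are shown for SREBF2, which holds this match. They are also shown for INSIG1, HMGCS1 and STARD4, on whose expression the drugs differed. Each reads 5′ to 3′ on the strand of the gene, and capitals mark the sterol regulatory element and CCAAT boxes on either strand, where a CCAAT box on the other strand reads ATTGG.
SREBF2, chr22:41832855-41833104, plus strand: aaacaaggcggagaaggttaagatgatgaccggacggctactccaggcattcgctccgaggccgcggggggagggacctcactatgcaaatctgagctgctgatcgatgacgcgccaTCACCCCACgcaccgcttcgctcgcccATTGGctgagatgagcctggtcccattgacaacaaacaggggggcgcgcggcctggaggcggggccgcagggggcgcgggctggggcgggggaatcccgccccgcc
INSIG1, chr7:155297628-155297877, plus strand: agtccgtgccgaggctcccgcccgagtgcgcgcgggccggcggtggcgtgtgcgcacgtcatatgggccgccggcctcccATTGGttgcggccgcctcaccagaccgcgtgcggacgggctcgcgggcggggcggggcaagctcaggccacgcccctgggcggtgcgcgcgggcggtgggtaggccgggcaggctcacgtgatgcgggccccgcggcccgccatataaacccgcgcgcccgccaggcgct
HMGCS1, chr5:43313413-43313662, minus strand: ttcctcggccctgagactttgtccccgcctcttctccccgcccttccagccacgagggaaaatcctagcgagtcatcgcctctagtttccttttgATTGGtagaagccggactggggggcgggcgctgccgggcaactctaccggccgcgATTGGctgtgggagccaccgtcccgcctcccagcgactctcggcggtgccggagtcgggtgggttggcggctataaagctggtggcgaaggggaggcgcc
STARD4, chr5:111512536-111512785, minus strand: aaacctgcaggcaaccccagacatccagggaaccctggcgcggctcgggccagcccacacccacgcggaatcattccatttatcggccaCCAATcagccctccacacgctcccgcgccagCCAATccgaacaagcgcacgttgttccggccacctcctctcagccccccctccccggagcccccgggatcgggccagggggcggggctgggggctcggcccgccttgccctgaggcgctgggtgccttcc
In SREBF2 the element begins 133 bases before the start and a CCAAT box begins at 106 bases. INSIG1 has 1 CCAAT box, at 170 bases. HMGCS1 has 2, at 155 and 100 bases, and STARD4 has 2, at 161 and 130 bases.

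Values are read counts relative to library size (CPM), scaled with TMM factors, and each log2 fold change (log2 FC), with its standard error (SE), comes from the quasi-likelihood test of edgeR with Benjamini-Hochberg adjustment over all genes tested. A gene was called at an adjusted p below 0.05. The 8 libraries held 28483235 to 29359024 counts, so depth hardly differed. In bulk samples, fewer cells of a type and less RNA per cell cannot be told apart. Melanocytic markers, 10 of 10 of them above 3 counts in at least 1 library, summed to between 3884 and 5917 CPM per library. The fibroblast, epithelial and endothelial lists summed to at most 35.5, 5.44 and 5.83 CPM, and a leukocyte list with the widely expressed CD68 to at most 83.2 CPM, and in each of these lists 1 marker stayed at 3 counts or fewer in every library. The fibroblast sum was highest with quisinostat (34.7 to 35.5 CPM) and lowest with mivebresib (8.19 to 10.6 CPM). The endothelial sum went from 0.602 to 0.913 CPM in the control to 3.03 to 3.57 with romidepsin and 5.16 to 5.83 with quisinostat, mostly KDR (log2 FC 3.18 with quisinostat). The epithelial sum went from 1.49 to 2.48 CPM in the control to 4.74 to 5.44 with romidepsin and 3.86 to 5.16 with quisinostat, and to 0.647 to 0.732 with mivebresib. Of the melanocytic genes, MITF (-1.39 and -1.47), MLANA (-1.05 and -1.33), SOX10 (-0.92 and -1.93) and GPR143 (-0.58 and -0.98) fell with quisinostat and mivebresib. TYRP1, the most abundant at 3550 CPM in the control, was called with neither (-0.25 and -0.19), nor was TYR (0.31 and -0.72). PMEL (-0.012 and -0.51) and SLC45A2 (-0.25 and -1.52) were called lower with mivebresib alone. PAX3 fell with quisinostat (-0.44) and rose with mivebresib (0.23), and DCT was not tested. The part of these markers in the results below was not tested.

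The control libraries stood apart from each other over all genes tested, and mostly in 1 direction for these genes. Control replicate 2 was higher than replicate 1 for 27 of the 31 genes, with a median difference of 0.29 on the log2 scale, whereas 49.9% of all genes tested were higher in replicate 2. The median absolute difference between replicates of these 31 genes was 0.29 in the control, 0.084 with romidepsin, 0.11 with quisinostat and 0.066 with mivebresib. Over all genes tested it was also largest in the control, at 0.23, 0.12, 0.11 and 0.13 in the same order of groups. For that reason the counts of called genes are given below with each control library left out.

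**Figure D1:**
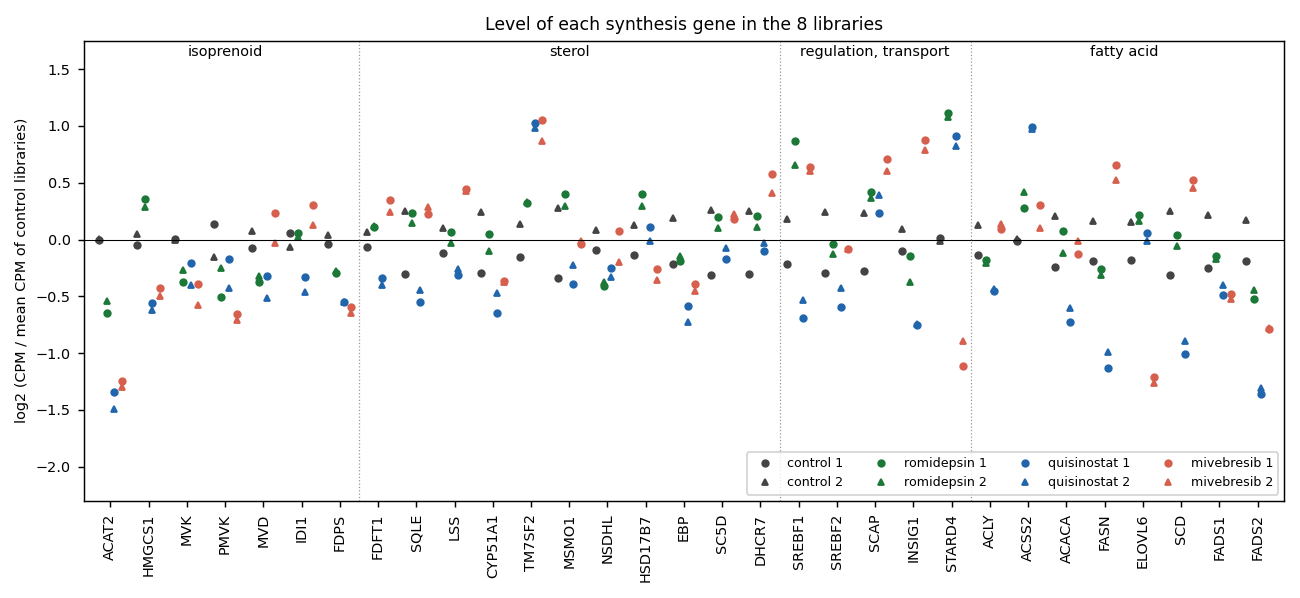
Level of each of the 31 genes in the 8 libraries, as log2 of CPM over the mean CPM of the control libraries (vertical axis), ordered by role. Colors give the group and symbols the replicate, and the gray control triangles (replicate 2) lie above the gray circles for 27 of the 31 genes.

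Quisinostat lowered most of the synthesis genes, whereas with romidepsin the shares of genes called in each direction lay near those of all genes tested. With quisinostat, 20 of the 31 genes fell (64.5%) and 3 rose (9.68%), against 25.1% lower and 28.0% higher among all genes tested. With romidepsin, 4 fell (12.9%) and 5 rose (16.1%), against 15.8% lower and 15.2% higher among all genes. With mivebresib, 10 fell (32.3%) and 9 rose (29.0%), against 24.1% lower and 22.2% higher among all genes. The median log2 FC of the 31 genes was -0.42 with quisinostat, -0.010 with romidepsin and -0.025 with mivebresib, beside -0.0036, -0.012 and 0.0067 over all genes.

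The changes were moderate in size. None of the 31 genes was called with a log2 FC beyond 1.5 in either direction against the control with any drug. Among all genes tested, calls beyond this fold made up 3.77% higher and 0.312% lower with romidepsin. They made up 11.2% higher and 1.03% lower with quisinostat, and 3.96% higher and 4.36% lower with mivebresib. The called changes ran from -1.41 for ACAT2 with quisinostat to 1.09 for STARD4 with romidepsin.

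The number of called genes depended on the control libraries. Refits without 1 library also changed the estimate of the spread that all groups share. Shares of all genes called in them are not given, so the counts do not show whether such shifts are particular to the 31 genes. Without control replicate 2, the median of the 31 genes was -0.31 with quisinostat, 0.21 with romidepsin and 0.18 with mivebresib. Over all genes it was 0.023, 0.017 and 0.017. Without control replicate 1 these medians were -0.58, -0.20 and -0.14, beside 0.022, 0.0042 and 0.012. Without control replicate 2, 15 genes fell and 4 rose with quisinostat, 5 fell and 13 rose with romidepsin, and 9 fell and 13 rose with mivebresib. Without control replicate 1, 23 fell and 3 rose with quisinostat, 10 fell and 4 rose with romidepsin, and 14 fell and 8 rose with mivebresib. The numbers were smaller without a library of the drug itself: 2 rises and 1 fall with romidepsin without either of its libraries, 13 and 12 falls with quisinostat without its replicate 1 and 2, and 5 rises with mivebresib without its replicate 1. Leaving out either quisinostat library left 2 falls with romidepsin. Scaling also mattered for quisinostat. Upper-quartile factors moved the median log2 FC of all genes to 0.13 and left 13 of the 31 genes lower, and library size alone moved that median to 0.20 and left 10 lower.

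Single calls were also unequally steady. With romidepsin, the calls of ACAT2, SREBF1 and STARD4 held whichever library was left out. Those of HMGCS1, FDPS, NSDHL, HSD17B7, ACSS2 and FADS2 were lost without either romidepsin library and with only the 4 libraries of the comparison. With quisinostat, the calls of MVD, IDI1, FDFT1, SQLE, LSS, CYP51A1, NSDHL, SREBF1, SREBF2 and FADS1 were lost without at least 1 library, and the other called genes held. With mivebresib, the calls of MVK, FDFT1, EBP, DHCR7, SCAP, SCD and FADS1 were lost without at least 1 library, and the other called genes held.

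**Figure D2:**
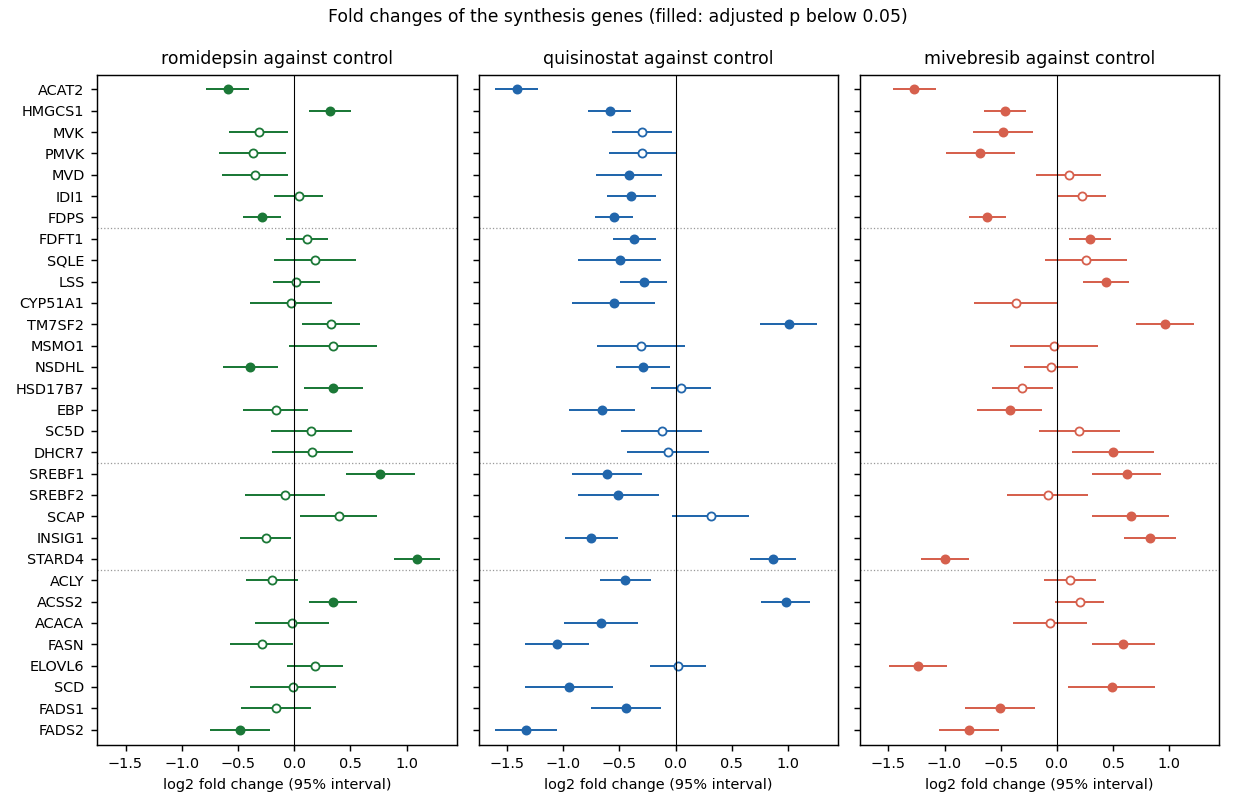
log2 FC of the 31 genes against the control for each drug (horizontal axis), with 95% intervals and filled circles for an adjusted p below 0.05. The filled circles number 20 to the left of 0 for quisinostat, 4 for romidepsin and 10 for mivebresib.

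Among the 5 genes of regulation and sterol transport, SREBF1, INSIG1 and STARD4 were each called higher with at least 1 drug and lower with another. SREBF1, whose SREBP products mainly drive fatty acid synthesis genes, was at 47.0 and 61.8 CPM in the control libraries and at 99.4 and 85.9 CPM with romidepsin. It was at 33.7 and 37.6 CPM with quisinostat and at 84.6 and 82.7 CPM with mivebresib. Both quisinostat libraries lay below both controls, and the libraries of romidepsin and mivebresib lay above them. SREBF1 rose with romidepsin (log2 FC 0.77, SE 0.13, adjusted p = 0.00363) and mivebresib (0.62, SE 0.13, adjusted p = 0.00549), and fell with quisinostat (-0.61, SE 0.14, adjusted p = 0.0055). The fall with quisinostat was not called without quisinostat replicate 1. RAI1 overlaps SREBF1 on the opposite strand. Its log2 FC was 0.071 with romidepsin, -0.49 with quisinostat and -0.80 with mivebresib. Whether reads were counted by strand is not given in the sources used here.

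INSIG1, the retention factor of SCAP, was at 68.9 and 78.4 CPM in the control. It was at 66.5 and 57.0 CPM with romidepsin, at 43.8 and 43.9 CPM with quisinostat, and at 135 and 127 CPM with mivebresib. The quisinostat libraries lay below and the mivebresib libraries above every other library. INSIG1 fell with quisinostat (log2 FC -0.75, SE 0.10, adjusted p = 0.000396) and rose with mivebresib (0.83, SE 0.10, adjusted p = 0.000264). With romidepsin its log2 FC was -0.25 (adjusted p = 0.0879).

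STARD4, a soluble carrier that moves cholesterol between membranes, was at 33.5 and 32.9 CPM in the control. It was at 72.0 and 70.0 CPM with romidepsin, at 62.6 and 58.9 CPM with quisinostat, and at 15.4 and 17.9 CPM with mivebresib. The libraries of both HDAC inhibitors lay above the controls, and the mivebresib libraries lay below them. STARD4 rose with romidepsin (log2 FC 1.09, SE 0.090, adjusted p = 0.000125) and quisinostat (0.87, SE 0.090, adjusted p = 8.75e-05), and fell with mivebresib (-0.998, SE 0.094, adjusted p = 6.9e-05). These values hardly depended on the control library left out, since STARD4 differed little between them, and ran from 1.08 to 1.13 with romidepsin, 0.85 to 0.88 with quisinostat and -1.01 to -0.98 with mivebresib.

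SREBF2, whose SREBP product mainly drives cholesterol synthesis genes, was at 213 and 310 CPM in the control, 255 and 239 with romidepsin, 173 and 194 with quisinostat, and 247 and 246 with mivebresib. It fell with quisinostat (log2 FC -0.51, SE 0.16, adjusted p = 0.024), and without control replicate 2 this was -0.22 and no longer called (adjusted p = 0.0599). Its log2 FC was -0.081 with romidepsin (adjusted p = 0.722) and -0.082 with mivebresib (adjusted p = 0.697). SCAP, the escort of the SREBPs, was at 43.9 and 62.7 CPM in the control, 71.4 and 68.8 with romidepsin, 62.5 and 69.8 with quisinostat, and 87.2 and 80.8 with mivebresib. It rose with mivebresib (log2 FC 0.66, SE 0.15, adjusted p = 0.00725; not called without mivebresib replicate 1), and was at 0.40 with romidepsin (adjusted p = 0.0769) and 0.31 with quisinostat (adjusted p = 0.111). Without control replicate 2, SCAP also passed the threshold with romidepsin (0.67) and quisinostat (0.58).

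**Figure D3:**
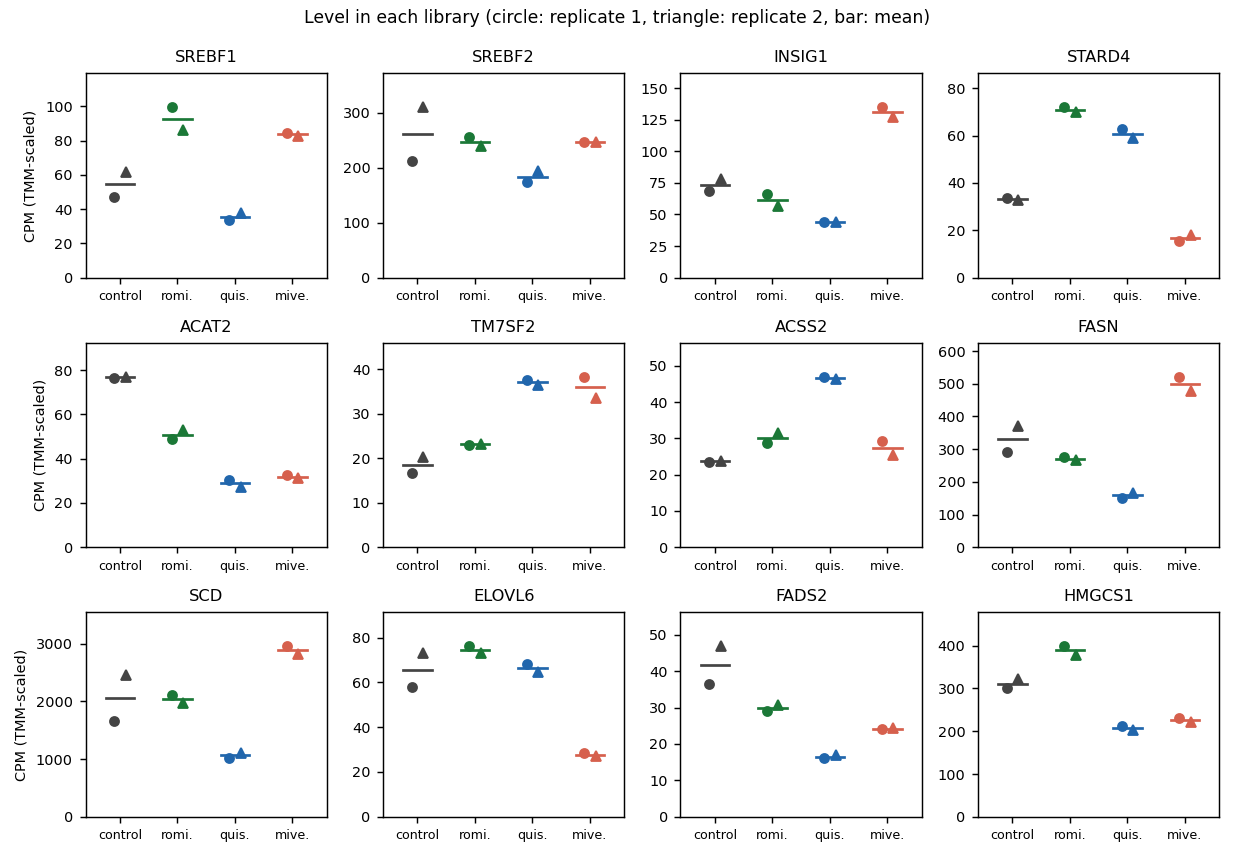
CPM (vertical axis, from 0) of 12 of the genes in each library, with circles for replicate 1, triangles for replicate 2 and bars for the group mean. INSIG1 and FASN are lowest with quisinostat and highest with mivebresib, whereas STARD4 is lowest with mivebresib.

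Of the 7 isoprenoid enzymes, 5 fell with quisinostat (71.4%, against 25.1% of all genes), 5 fell with mivebresib (71.4%, against 24.1%), and 2 fell and 1 rose with romidepsin (28.6% and 14.3%, against 15.8% and 15.2%). ACAT2, which joins acetyl-CoA units at the entry of the pathway, was at 76.6 and 77.0 CPM in the control and at 49.1 and 52.8 CPM with romidepsin. It was at 30.4 and 27.3 CPM with quisinostat and at 32.5 and 31.3 CPM with mivebresib. Every drug library lay below the controls, and ACAT2 fell by 0.59 on the log2 scale with romidepsin (SE 0.083, adjusted p = 0.00131), by 1.41 with quisinostat (SE 0.085, adjusted p = 5.41e-06) and by 1.27 with mivebresib (SE 0.085, adjusted p = 1.31e-05). TCP1 and SOD2 overlap ACAT2 on the opposite strand and were at 313 and 500 CPM in the control. TCP1 had log2 FC values of -0.011, -0.17 and 0.20 with the same drugs and was not called. SOD2 was at 0.21, -0.38 and -0.22, and was called lower with quisinostat (adjusted p = 0.00686). The part of these genes in the ACAT2 counts was not tested.

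HMGCS1, the synthase that makes HMG-CoA, was at 301 and 322 CPM in the control, 398 and 379 with romidepsin, 212 and 203 with quisinostat, and 231 and 221 with mivebresib. The romidepsin libraries lay above the controls and the others below them. HMGCS1 rose with romidepsin (log2 FC 0.32, SE 0.083, adjusted p = 0.0202; not called without either romidepsin library), and fell with quisinostat (-0.59, SE 0.083, adjusted p = 0.000489) and mivebresib (-0.46, SE 0.083, adjusted p = 0.00212). FDPS, which makes farnesyl diphosphate, was at 121 and 127 CPM in the control, 101 and 102 with romidepsin, 84.7 and 84.5 with quisinostat, and 81.9 and 79.1 with mivebresib. FDPS fell by 0.29, 0.55 and 0.62 on the log2 scale in that order of drugs (adjusted p = 0.0184, 0.000338 and 0.000221), and the fall with romidepsin was lost when any romidepsin or quisinostat library was left out and with upper-quartile factors. The annotation names 8 FDPS pseudogenes, so a part of its reads could be assigned elsewhere.

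The mevalonate kinase steps, MVK and PMVK, were called lower with mivebresib alone. With romidepsin and quisinostat, PMVK was at -0.37 and -0.30 and MVK at -0.32 and -0.30 (adjusted p from 0.0564 to 0.0892). PMVK, phosphomevalonate kinase, was at 59.5 and 48.8 CPM in the control and at 34.3 and 33.2 CPM with mivebresib (log2 FC -0.68, SE 0.13, adjusted p = 0.00336). MVK, mevalonate kinase, was at 12.0 and 11.9 CPM in the control and at 9.14 and 8.06 CPM with mivebresib (log2 FC -0.48, SE 0.12, adjusted p = 0.0101; not called without mivebresib replicate 2). MMAB overlaps MVK on the opposite strand and was at 24.8 CPM in the control. It was called lower with romidepsin (log2 FC -0.65) and quisinostat (-1.14) and not called with mivebresib (0.31). The part of MMAB in the MVK counts was not tested. The decarboxylase MVD and the isomerase IDI1 produce and interconvert the isoprene units. They fell with quisinostat (log2 FC -0.42 and -0.39, adjusted p = 0.0238 and 0.00801). Without control replicate 2 MVD was at -0.35 and not called (adjusted p = 0.069), and neither gene was called without quisinostat replicate 2. With mivebresib they were at 0.11 and 0.22 (adjusted p = 0.523 and 0.0876).

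Of the 11 sterol enzymes, 6 fell and 1 rose with quisinostat (54.5% and 9.09%, against 25.1% and 28.0% of all genes) and 1 fell and 4 rose with mivebresib (9.09% and 36.4%, against 24.1% and 22.2%). With romidepsin 1 fell and 1 rose, 9.09% each way and fewer than the 15.8% and 15.2% of all genes. TM7SF2, a sterol reductase that acts after CYP51A1, was at 16.6 and 20.3 CPM in the control and at 23.0 and 23.3 CPM with romidepsin. It was at 37.7 and 36.5 CPM with quisinostat and at 38.3 and 33.6 CPM with mivebresib. The quisinostat and mivebresib libraries lay well above the rest, and TM7SF2 rose 2.01-fold with quisinostat (log2 FC 1.01, SE 0.11, adjusted p = 0.000133) and 1.95-fold with mivebresib (0.96, SE 0.11, adjusted p = 0.000216). Its log2 FC was 0.33 with romidepsin (adjusted p = 0.0586). VPS51, which overlaps TM7SF2 on the same strand, was not called (log2 FC -0.21, -0.11 and -0.13 in the same order of drugs as above).

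The other sterol genes that quisinostat lowered were EBP (log2 FC -0.65), CYP51A1 (-0.55), SQLE (-0.50), FDFT1 (-0.37), NSDHL (-0.29) and LSS (-0.28), with adjusted p-values from 0.00277 for EBP to 0.0471 for NSDHL. SQLE, squalene epoxidase, was at 339 and 500 CPM in the control and at 286 and 308 CPM with quisinostat. CYP51A1, lanosterol demethylase, was at 376 and 544 CPM in the control and at 295 and 333 CPM with quisinostat. Both fell below the lower control library, by less than the gap between the controls. Without control replicate 2, SQLE, LSS and NSDHL were no longer called (adjusted p = 0.077, 0.0978 and 0.118). The call of FDFT1, squalene synthase, was lost without quisinostat replicate 2 and with library size alone. That of CYP51A1 was lost without quisinostat replicate 1, with either other scaling, with a mean CPM of at least 5 and with the 4 libraries of the comparison. EBP, a sterol isomerase, stayed called under each of these settings.

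Mivebresib raised DHCR7 (log2 FC 0.50, adjusted p = 0.0316), LSS (0.44, adjusted p = 0.00468) and FDFT1 (0.29, adjusted p = 0.0185) besides TM7SF2, and lowered EBP (-0.42, adjusted p = 0.0252). DHCR7, the reductase that completes cholesterol, was at 93.2 and 137 CPM in the control and at 172 and 153 CPM with mivebresib. LSS, lanosterol synthase, was at 60.0 and 69.9 CPM in the control and at 88.4 and 87.3 CPM with mivebresib. The DHCR7 call was lost when any library but control replicate 2 was left out (log2 FC 0.25, adjusted p = 0.0604 without control replicate 1), and the EBP call without control replicate 2 (-0.21, adjusted p = 0.0866) or either mivebresib library. FDFT1 was not called without mivebresib replicate 1.

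Romidepsin lowered NSDHL (log2 FC -0.39, adjusted p = 0.0249), a sterol dehydrogenase, from 127 and 143 CPM in the control to 101 and 104 CPM. It raised HSD17B7 (0.35, adjusted p = 0.0494), a sterol ketone reductase, from 12.1 and 14.5 CPM to 17.6 and 16.3 CPM. The NSDHL call was lost when any romidepsin or quisinostat library was left out. HSD17B7 lay at the threshold and lost its call when any library but control replicate 2 was left out, and the annotation names 2 pseudogenes for it. MSMO1, a methyl sterol oxidase, and SC5D, a sterol desaturase, were called with no drug. MSMO1 was at 92.5 and 142 CPM in the control and between 89.2 and 154 CPM in the drug libraries. SC5D was at 91.9 and 136 CPM in the control and between 101 and 133 CPM in the drug libraries.

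Of the 8 fatty acid genes, 6 fell and 1 rose with quisinostat (75.0% and 12.5%, against 25.1% and 28.0% of all genes). With mivebresib 3 fell and 2 rose (37.5% and 25%, against 24.1% and 22.2%), and with romidepsin 1 fell and 1 rose (12.5% each way, against 15.8% and 15.2%). SCD, the stearoyl-CoA desaturase that makes monounsaturated fatty acids, was the most abundant of the 31 genes, with 1663 and 2457 CPM in the control and 2114 and 1977 CPM with romidepsin. It was at 1027 and 1111 CPM with quisinostat and at 2955 and 2815 CPM with mivebresib. The quisinostat libraries lay below both controls and the mivebresib libraries above them. SCD fell with quisinostat (log2 FC -0.95, SE 0.17, adjusted p = 0.00181) and rose with mivebresib (0.49, SE 0.17, adjusted p = 0.0437). The rise with mivebresib lay near the threshold: it was lost when any library but control replicate 2 was left out, and with the 4 libraries of the comparison alone. Without control replicate 1 it was at 0.23 (adjusted p = 0.0849). In contrast, the fall with quisinostat held without either control (-1.20 and -0.65). With romidepsin SCD was at -0.010 (adjusted p = 0.97), and it passed the threshold upward without control replicate 2 (0.30, adjusted p = 0.0303).

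FASN, fatty acid synthase, was at 291 and 371 CPM in the control and at 276 and 266 CPM with romidepsin. It was at 152 and 167 CPM with quisinostat and at 521 and 476 CPM with mivebresib. FASN fell 2.08-fold with quisinostat (log2 FC -1.06, SE 0.13, adjusted p = 0.000185) and rose 1.51-fold with mivebresib (0.59, SE 0.12, adjusted p = 0.00471), and both calls held without either control library. With romidepsin its log2 FC was -0.29 (adjusted p = 0.109). ACACA and ACLY, which supply malonyl-CoA and cytosolic acetyl-CoA, fell with quisinostat (log2 FC -0.66 and -0.45, adjusted p = 0.0049 and 0.0058). With mivebresib they were at -0.066 and 0.12 (adjusted p = 0.738 and 0.377).

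ACSS2, which makes acetyl-CoA from acetate, was the only 1 of the 8 fatty acid genes called higher with quisinostat. It was at 23.5 and 23.8 CPM in the control, 28.6 and 31.6 with romidepsin, 46.9 and 46.4 with quisinostat, and 29.1 and 25.4 with mivebresib. Both quisinostat libraries were higher than every other library. ACSS2 rose 1.97-fold with quisinostat (log2 FC 0.98, SE 0.094, adjusted p = 6.17e-05) and 1.27-fold with romidepsin (0.35, SE 0.095, adjusted p = 0.0255), and was at 0.20 with mivebresib (adjusted p = 0.114). The rise with romidepsin was not called without either romidepsin library. GGT7 overlaps ACSS2 on the opposite strand at 4.87 CPM in the control, and its log2 FC was 0.93 with romidepsin, 1.48 with quisinostat and 0.25 with mivebresib. Its part in the ACSS2 counts was not tested.

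ELOVL6, which elongates the products of FASN, fell with mivebresib. It was at 58.0 and 73.1 CPM in the control, 76.1 and 73.2 with romidepsin, 68.1 and 64.8 with quisinostat, and 28.3 and 27.3 with mivebresib. The mivebresib libraries lay far below all others, a 2.36-fold fall (log2 FC -1.24, SE 0.11, adjusted p = 6.01e-05). The log2 FC was 0.19 with romidepsin (adjusted p = 0.219) and 0.021 with quisinostat (adjusted p = 0.886).

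FADS2 and FADS1 desaturate polyunsaturated fatty acids and lie head to head, overlapping on opposite strands. FADS2 was at 36.5 and 46.8 CPM in the control, 29.0 and 30.6 with romidepsin, 16.2 and 16.9 with quisinostat, and 24.1 and 24.3 with mivebresib. All drug libraries lay below the controls, and FADS2 fell by 0.48, 1.33 and 0.78 on the log2 scale in that order of drugs (SE 0.12 for each, adjusted p = 0.015, 4.27e-05 and 0.000849), although the fall with romidepsin was not called without either romidepsin library. FEN1, which the annotation places within FADS2 on the same strand and which was at 82.4 CPM in the control, fell by 0.74, 1.32 and 0.77 on the log2 scale, and its part in the FADS2 counts was not tested. FADS1 fell with quisinostat (log2 FC -0.44, adjusted p = 0.0236) and mivebresib (-0.50, adjusted p = 0.0157), and was at -0.16 with romidepsin (adjusted p = 0.396). Without control replicate 2 its fall with quisinostat was not called (-0.20, adjusted p = 0.0566), nor was its fall with either drug without either library of that drug.

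The drugs were then compared with each other, which leaves the control libraries out of the fold change but not out of the shared estimate of the spread. Romidepsin and quisinostat were used at the same dose and time. Of the 31 genes, 16 were lower and 2 higher with quisinostat than with romidepsin, against 14.6% lower and 21.0% higher among all genes tested. The number called lower rose without either control library and fell without any single drug library. Such refits change the shared estimate of the spread, and the shares of all genes called in them are not given. SREBF1 differed most, 2.60-fold lower with quisinostat (log2 FC -1.38, SE 0.14, adjusted p = 0.000248). It was followed by SCD (-0.94, adjusted p = 0.00375), HMGCS1 (-0.91, adjusted p = 0.000181), FADS2 (-0.85, adjusted p = 0.00121) and ACAT2 (-0.82, adjusted p = 0.000291). FASN (-0.77), SQLE (-0.69), MSMO1 (-0.65), ACACA (-0.64) and INSIG1 (-0.49) were also lower.

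TM7SF2 (log2 FC 0.68, adjusted p = 0.00223) and ACSS2 (0.63, adjusted p = 0.00143) were higher with quisinostat than with romidepsin. STARD4 did not pass the threshold, with a log2 FC of -0.22 (95% interval -0.42 to -0.025, adjusted p = 0.0774). ELOVL6 was at -0.17 (95% interval -0.42 to 0.081, adjusted p = 0.267) and SCAP at -0.084 (95% interval -0.42 to 0.26, adjusted p = 0.699). No gene of the 31 passed a log2 FC beyond 1.5 as well, against 5.41% higher and 0.179% lower among all genes.

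Mivebresib and quisinostat were used at different doses, so their values describe these treatments side by side. Of the 31 genes, 14 were higher and 5 lower with mivebresib, against 26.2% higher and 31.5% lower among all genes. FASN was 3.14-fold higher (log2 FC 1.65, SE 0.13, adjusted p = 1.52e-05), INSIG1 2.99-fold higher (1.58, SE 0.10, adjusted p = 6.43e-06) and SCD 2.70-fold higher (1.43, SE 0.17, adjusted p = 0.000164). SREBF1 was 2.35-fold higher (1.23, SE 0.14, adjusted p = 0.000105). STARD4 was 3.65-fold lower with mivebresib (log2 FC -1.87, SE 0.094, adjusted p = 1.98e-06), ELOVL6 2.39-fold lower (-1.26, SE 0.11, adjusted p = 3.33e-05) and ACSS2 1.71-fold lower (-0.78, SE 0.093, adjusted p = 0.000168). PMVK and HSD17B7 were the other genes that were lower, at -0.39 and -0.36. Both of these calls were lost without quisinostat replicate 1 or either mivebresib library. FASN and INSIG1 above, and STARD4 below, passed a log2 FC beyond 1.5, against 1.73% higher and 12.6% lower among all genes.

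Mivebresib and romidepsin also differed in dose. Of the 31 genes, 8 were higher and 6 lower with mivebresib than with romidepsin, against 23.7% higher and 25.2% lower among all genes. Both numbers rose without either control library, and the number higher fell without any single drug library. The shares of all genes called in those refits are not given. STARD4 was 4.27-fold lower (log2 FC -2.09, SE 0.094, adjusted p = 2.77e-06) and alone passed a log2 FC beyond 1.5, against 2.52% higher and 6.70% lower among all genes. ELOVL6 (-1.43), HMGCS1 (-0.78), ACAT2 (-0.68), HSD17B7 (-0.66) and FDPS (-0.33) were also lower. INSIG1 was 2.12-fold higher (log2 FC 1.08, SE 0.10, adjusted p = 5.97e-05) and FASN 1.84-fold higher (0.88, SE 0.12, adjusted p = 0.000555). SREBF1 was at -0.15 (95% interval -0.45 to 0.16, adjusted p = 0.392).

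**Figure D4:**
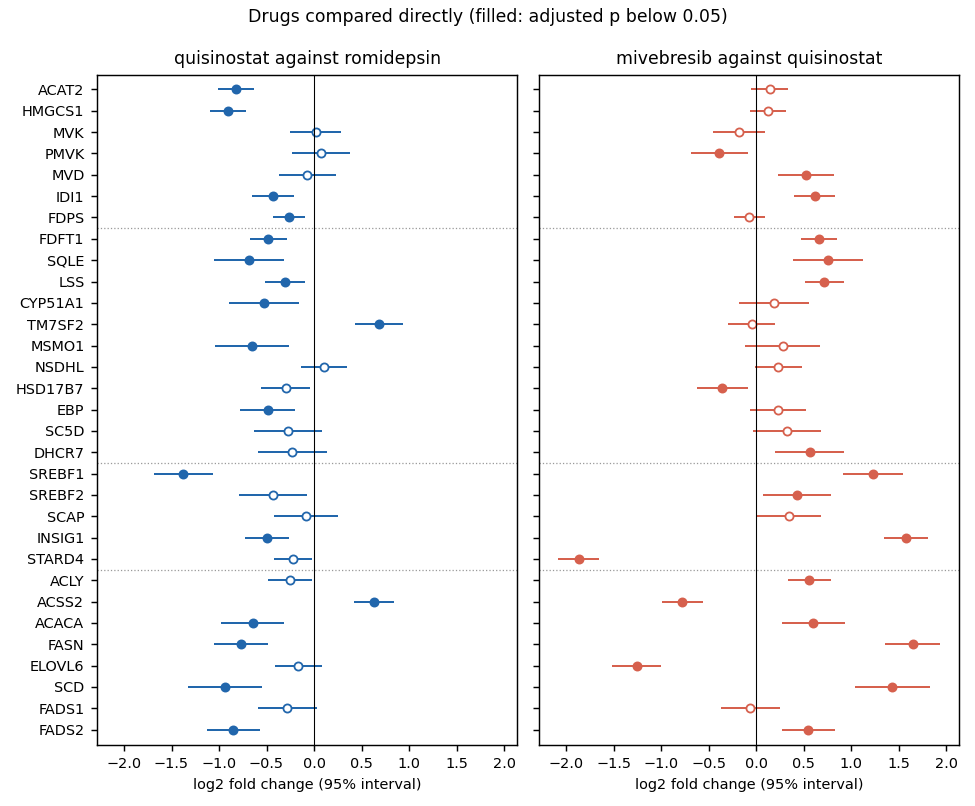
log2 FC of the 31 genes between drugs (horizontal axis), with 95% intervals and filled circles for an adjusted p below 0.05. Quisinostat against romidepsin has 16 filled circles left of 0 and 2 right of it, and mivebresib against quisinostat has 5 and 14.

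Genes next to the pathway were described from 5 further lists, whose counts read against the shares of all genes called higher and lower: 15.2% and 15.8% with romidepsin, 28.0% and 25.1% with quisinostat, and 22.2% and 24.1% with mivebresib. Of 11 genes of SREBP processing, 6 rose and 0 fell with mivebresib, 3 rose and 2 fell with quisinostat, and 2 rose and 0 fell with romidepsin, and the medians of the list were 0.38, 0.035 and 0.095. The shares higher and lower were 54.5% and 0% with mivebresib, 27.3% and 18.2% with quisinostat, and 18.2% and 0% with romidepsin. With mivebresib, PGRMC1 was at 0.55 and MBTPS1, a protease that cuts the SREBPs, at 0.52. INSIG2, the paralog of INSIG1, rose with romidepsin (0.59, adjusted p = 0.00293) and quisinostat (0.52, adjusted p = 0.0023), as did PAQR3 (0.44 and 0.42), and ERLIN1 fell with quisinostat (-0.63).

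Of 16 genes of sterol uptake, storage and efflux, 2 rose and 1 fell with romidepsin, 3 rose and 3 fell with quisinostat, and 3 rose and 3 fell with mivebresib. These shares, from 6.25% to 18.8%, were all below those of all genes. ABCG1, a sterol efflux transporter, was at 2.44 and 2.56 CPM in the control. It was at 9.34 and 9.51 CPM with romidepsin, 7.95 and 11.3 with quisinostat, and 8.96 and 9.85 with mivebresib, with log2 FC values of 1.91, 1.94 and 1.91 (adjusted p = 0.00026, 6.3e-05 and 9.06e-05). NR1H2, a sterol-sensing nuclear receptor, fell with romidepsin (-0.77), and MYLIP rose with it (0.41). LIPA, the lysosomal lipase, rose with quisinostat (0.88), and CYP27A1, which makes an oxysterol, fell with mivebresib (-1.10). CH25H had 12 and 24 counts in the control, 5 and 6 with quisinostat (log2 FC -1.87, adjusted p = 0.03), and 2 and 0 with mivebresib, at or under the floor of 3 counts.

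A list of isoprenoid branches held 13 genes, among them LBR, a sterol reductase like TM7SF2. Of these 13, 5 fell and 0 rose with romidepsin, 7 fell and 0 rose with quisinostat, and 5 fell and 3 rose with mivebresib. The falls made up 38.5%, 53.8% and 38.5% of the list, above the shares of all genes called lower, and the rises with mivebresib 23.1%, near that of all genes. FNTB, the beta subunit of protein farnesyltransferase, was at 33.2 and 35.0 CPM in the control and fell by 0.75, 1.18 and 1.43 on the log2 scale with romidepsin, quisinostat and mivebresib. RABGGTA, a subunit of the transferase that prenylates Rab proteins, fell by 0.94, 1.15 and 0.55. COQ2 fell with romidepsin (-0.67) and PDSS1 with quisinostat (-0.68), both in ubiquinone synthesis, while RABGGTB rose with mivebresib (0.54).

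Of 30 genes of other fatty acid and glycerolipid synthesis, 28 were tested, and 10 rose and 2 fell with romidepsin, 8 rose and 7 fell with quisinostat, and 12 rose and 3 fell with mivebresib. The rises made up 35.7% with romidepsin and 42.9% with mivebresib, above all genes, while the shares with quisinostat (28.6% higher and 25% lower) were those of all genes to within 1 percentage point. The largest rises were among fatty acid elongases other than ELOVL6. ELOVL4 was at 0.496 and 0.840 CPM in the control and rose with romidepsin (log2 FC 3.61), quisinostat (4.0) and mivebresib (3.76). ELOVL7, at 6.59 and 8.51 CPM, rose by 1.88, 2.07 and 1.71. ELOVL2, at 1.06 and 0.840 CPM, rose with romidepsin (2.53) and quisinostat (4.65) and was at 0.805 and 0.971 CPM with mivebresib. DGAT1, which completes triglycerides, rose with mivebresib (1.56, adjusted p = 6.91e-06).

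Of 24 genes of fatty acid oxidation, 22 were tested, and 2 rose and 2 fell with romidepsin, 5 rose and 2 fell with quisinostat, and 5 rose and 6 fell with mivebresib. These shares were near those of all genes with mivebresib (22.7% higher and 27.3% lower) and below them with romidepsin (9.09% each way) and quisinostat (22.7% and 9.09%). PPARGC1A, a coactivator of mitochondrial genes, had 1 and 2 counts in the control, 45 and 51 with romidepsin, 138 and 130 with quisinostat, and 4 and 1 with mivebresib. Because the control was under the floor of 3 counts, no fold is given. ECHS1 (-0.53) and ECI1 (-0.52) fell with romidepsin, and ECI1 (-0.51) also with quisinostat, which raised DECR1 (0.87). With mivebresib ACADS (0.85), ETFDH (0.84) and ACAA1 (0.76) rose. The medians of these last 4 lists lay between -0.48, for isoprenoid branches with quisinostat, and 0.19, for other lipid synthesis with mivebresib.

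**Figure D5:**
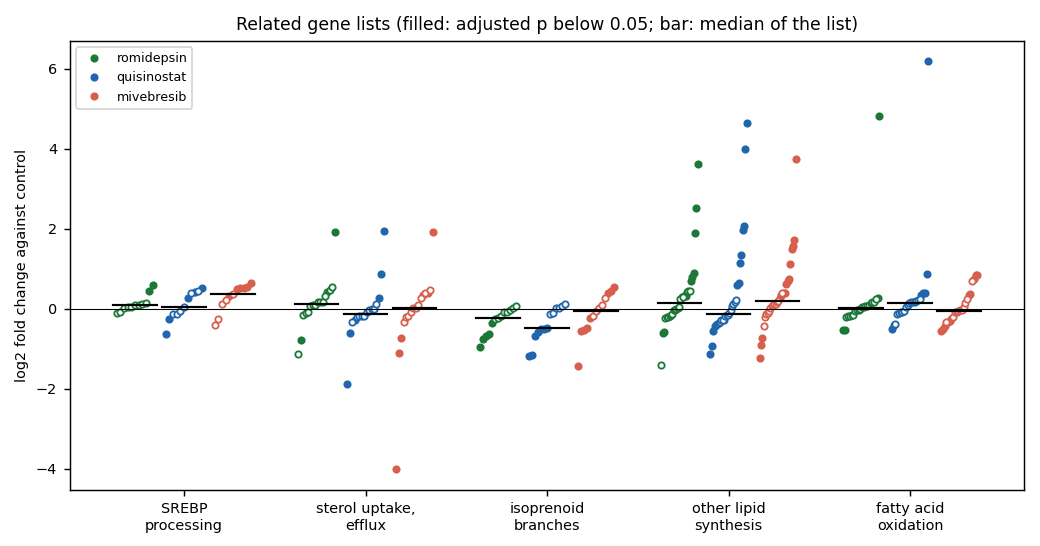
log2 FC against the control (vertical axis) of the tested genes of 5 related lists for each drug, with filled circles for an adjusted p below 0.05 and bars for the median of each list. The highest points are ELOVL2 and ELOVL4, and PPARGC1A in fatty acid oxidation, whose fitted value rests on a control at 1 and 2 counts; the lowest is CH25H with mivebresib, which rests on 2 and 0 counts.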

How the data were processed

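Total RNA of 8 wells of MP38 cells was sequenced as strand-specific mRNA libraries with paired-end reads. The authors processed the reads with BioJupies and deposited counts per gene symbol without normalization, on hg38 per the submitters' processing notes. The aligner, the annotation and the use of strand in counting are not given in the sources used here. The deposited log-scale and quantile-normalized tables of the same libraries were not used. Groups came from the treatment labels, with 2 libraries each. The quasi-likelihood test of edgeR 4.0.16 (R 4.3.3) was run with filterByExpr by group, TMM scaling, 1 model of all 8 libraries, and Benjamini-Hochberg adjustment over the 15085 genes tested in each of 6 comparisons. A gene was called at an adjusted p below 0.05. The fit was tested on simulated data. The study used limma through BioJupies, and limma-voom 3.58.1 and DESeq2 1.42.0 were alternatives, as were other scalings, other filters on low counts, a log2 FC beyond 1.5, a replicate block, fits on the 4 libraries compared and on all but each library in turn.

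The 31 genes, the related lists and the rule for naming genes were chosen with earlier results of these data known. All 31 are accounted for. Library values are given for the regulators and for the called genes with the largest changes (up to 5 per drug and direction), and from each related list up to 3 called genes of largest absolute log2 FC per drug are named. The value of 1 gene of the SREBP processing list that met this rule is not reported here. Replicates are separate wells, and each pair differed by more than counting error. The chi-square per degree of freedom was 58.1 in the control and 9.52 to 9.79 with the drugs. It covered genes with 20 or more counts in a pair. Loci, overlaps and exonic lengths came from GENCODE 29 and promoters from RefSeq. Python 3.11.15, pandas 2.3.3 and matplotlib 3.10.9 were used.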

Additional observations from a re-analysis of the deposited data

How the results depend on the processing

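With 2 libraries per group, the precision was limited by the number of libraries and not by depth. Of 1488 values of single genes against the control under the alternatives, 1335 kept their side of the threshold, 113 lost a call, 38 gained one and 2 turned from an uncalled value to a call of the other sign, both without control replicate 2 (SCD with romidepsin at 0.30 and MSMO1 with mivebresib at 0.31, against -0.24 and -0.30 without control replicate 1). A further 56 uncalled values turned sign. With only the 4 libraries of each comparison, 2 genes rose and 1 fell with romidepsin. Calls against the control went from 9 to 3 with romidepsin, 23 to 17 with quisinostat and 19 to 14 with mivebresib. For quisinostat against romidepsin they went from 18 to 26, and for mivebresib against quisinostat from 19 to 24. Mivebresib against romidepsin went from 14 to 22 calls, 12 of them lower. The shares of all genes called in these fits are not given. With quisinostat, 13 genes fell with upper-quartile factors or a mean CPM of at least 5, and 10 with library size alone, where the median of the 31 genes was -0.22. Requiring also a log2 FC beyond 1.5 left 0 genes in either direction for each drug against the control and for quisinostat against romidepsin. It left 2 higher and 1 lower for mivebresib against quisinostat, and 0 higher and 1 lower for mivebresib against romidepsin.

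Leaving out each library in turn, the genes that rose numbered 2 to 13 and those that fell 1 to 10 with romidepsin, 3 to 4 and 12 to 23 with quisinostat, and 5 to 13 and 7 to 14 with mivebresib. The lowest numbers came without either romidepsin library for romidepsin, without quisinostat replicate 2 for falls with quisinostat, and without mivebresib replicate 1 for rises and replicate 2 for falls with mivebresib. Rises with quisinostat numbered 3 whichever library was left out, except control replicate 2 (4). The highest came without control replicate 2 for rises and without control replicate 1 for falls. The medians of the 31 genes ran from -0.20 to 0.21 with romidepsin, -0.58 to -0.31 with quisinostat and -0.14 to 0.18 with mivebresib, in each case from without control replicate 1 to without control replicate 2. Quisinostat against romidepsin gave 2 higher throughout and 7 (without romidepsin replicate 1) to 24 lower. Mivebresib against quisinostat gave 11 to 19 higher and 3 to 5 lower, with 3 without quisinostat replicate 1 or either mivebresib library. Mivebresib against romidepsin gave 3 (without romidepsin replicate 2) to 11 higher and 6 to 12 lower. The cause was not tested, and the shares of all genes called in these refits are not given.

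The labels do not say whether the replicate numbers pair the libraries. The replicate differences of the groups correlated between -0.18 and 0.17 over all genes, which cannot exclude a pairing. A replicate block gave 4 higher and 4 lower with romidepsin, 3 and 19 with quisinostat, and 9 and 10 with mivebresib.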

Other observations

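The 31 genes took 0.505% and 0.658% of all counts in the control libraries, 0.633% and 0.597% with romidepsin, 0.433% and 0.453% with quisinostat, and 0.682% and 0.673% with mivebresib. SCD alone took 0.160% and 0.231% in the control, 0.112% and 0.121% with quisinostat, and 0.281% and 0.275% with mivebresib. Per kilobase of exonic length, the control level was highest for SCD (384 CPM per kb), followed by CYP51A1 (128), SQLE (97.5) and ACLY (76.0), and lowest for MVK (1.85) and MVD (2.61).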
